A study of Rattus norvegicus with 12 samples.

Results

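The genes described here are the rat zinc finger protein genes named Zfp or Znf with a number, measured in H9C2 cells by RNA sequencing of whole cultures. A gene was a member if its symbol began with Zfp or Znf and a digit and its level averaged at least 1 CPM (count per M reads of the library) over the 8 libraries that went through hypoxia and reoxygenation. Of 16074 gene IDs in the table, 327 matched the name and 271 of these passed the level, 259 named Zfp and 12 named Znf, while 56 matching names lay below it. The family was picked because it was lower with the LITAF vector, so its values in that comparison are given as a description, with counts of calls but no p-value. For 3 members, Zfp707l1, Zfp93 and Zfp94, the table held rows that differed in the control columns, and 268 members entered the fit, all of which passed its filter on low counts. The members nearest to the level minimum were Zfp708 at 1.04 CPM, Zfp788 at 1.05 CPM and Zfp866 at 1.07 CPM, and the nearest names below it were Zfp950l8 and Zfp964, each at 0.965 CPM, and Zfp951 at 0.931 CPM.

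H9C2 is an established line of rat heart myoblasts. The study had 12 libraries of polyadenylated RNA in 3 groups of 4. H/R + LITAF cells (genotype LITAF overexpression) carried a lentivirus that overexpresses LITAF, an endosomal and lysosomal membrane protein, and were kept at 1% oxygen for 8 h and then reoxygenated for 2 h. H/R cells (wild type) carried an empty lentivirus and had the same hypoxia and reoxygenation, so H/R + LITAF against H/R sets the LITAF insert against the empty vector. Control cells (wild type) stayed in normal oxygen without a vector, so vector and hypoxia cannot be told apart in any comparison with control. Counts that were not whole numbers made up 3.12 to 3.41% of values over genes tested in control columns and 14.5 to 15.8% in the others. Counting may therefore have differed, which cannot be told apart from vector and hypoxia either. The replicates are labelled biological and of a single batch, and separate cultures are not stated, so the p-values cover the spread among these libraries alone, which may be technical. Litaf itself averaged 2338 ± 326 CPM in H/R + LITAF cells, 585 ± 30.0 CPM in H/R cells and 473 ± 17.9 CPM in control cells (SD, n = 4 each). Of the labelled cell type's markers, the myoblast genes Myod1, Myog, Des and Cdh15 were expressed and Myf5 did not exceed 0.0577 CPM in any library, while of the cardiomyocyte genes Tnnt2 alone passed the filter and Myh6, Myl2, Nppa, Tnni3 and Ryr2 did not. The fibroblast collagens Col1a1 and Col1a2 were expressed and Pdgfra did not pass the filter, none of 3 endothelial markers passed the filter, and of the leukocyte markers Cd14 alone did.

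Most genes of this family encode proteins with a row of C2H2 zinc fingers, small folds held by a zinc ion that each read a few bases of DNA. Many carry a KRAB domain as well, which recruits Trim28 and through it histone methyltransferases and heterochromatin proteins, and such proteins are best known for silencing transposable elements and imprinted genes. KRAB zinc finger genes arose by repeated tandem duplication, so they often lie in clusters of similar copies. The names Zfp and Znf also cover proteins of other kinds, among them CCCH proteins that bind RNA and proteins that work at ribosomes or on the spindle. In bulk RNA, fewer cells with a transcript and less transcript per cell cannot be told apart.

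Promoter sequences from RefSeq (build GRCr8, 250 bases before to 50 bases after the gene start) were matched by symbol for 184 members. When 8-letter words held by at least 12 of these promoters were ranked by their share among members over their share among the 8754 matched genes tested, the first of 85 words was GTCACTCA, read on both strands. It stood in 16 member promoters (8.70%), against 126 of the promoters of all genes tested (1.44%) and 1.32% of the 24206 promoters in the reference. The word was found by searching these promoters, so its share is a description. The windows below show it in capitals with 16 bases on either side, in the word's own direction. Of the 15 windows that fit in the 300 bases, 11 are shown, among them all 6 with CCAAT after the word, and Zfp580, the member with the word whose level was not lower with LITAF. The windows of Zfp24, Zfp467, Zfp866 and Zfp868 are left out and hold no CCAAT after the word. CCAAT beyond the window, as in the promoters of Zfp866 and Zfp868, was not counted.

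Znf57l (chr7:8710852-8710891, minus strand): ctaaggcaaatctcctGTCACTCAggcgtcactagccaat
Znf624l (chr7:8541792-8541831, minus strand): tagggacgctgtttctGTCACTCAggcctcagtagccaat
Zfp433l (chr7:8651431-8651470, minus strand): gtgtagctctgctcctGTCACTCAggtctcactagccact
Zfp619 (chr1:100284702-100284741, plus strand): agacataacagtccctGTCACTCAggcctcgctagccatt
Znf431l5 (chr16:19847474-19847513, plus strand): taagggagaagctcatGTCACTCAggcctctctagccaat
Zfp788 (chr1:102310361-102310400, plus strand): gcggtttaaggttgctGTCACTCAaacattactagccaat
Zfp950l2 (chr9:120948164-120948203, plus strand): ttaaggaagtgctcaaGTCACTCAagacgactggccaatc
Zfp950l11 (chr10:107671253-107671292, plus strand): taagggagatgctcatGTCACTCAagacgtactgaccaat
Zfp143 (chr1:173543790-173543829, minus strand): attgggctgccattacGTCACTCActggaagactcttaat
Znf846 (chr12:21126788-21126827, minus strand): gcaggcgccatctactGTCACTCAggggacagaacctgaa
Zfp580 (chr1:77818296-77818335, minus strand): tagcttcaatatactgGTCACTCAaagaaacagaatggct

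In Znf57l, Znf624l, Znf431l5, Zfp788, Zfp950l2 and Zfp950l11 the letters CCAAT stood within the 16 bases after the word. This pair occurred in 6 member promoters (3.26%), in 12 promoters of genes tested (0.137%), those 6 among them, and in 0.103% of all promoters. It was seen in windows of a word found by searching these promoters, so these shares are a description too. The 16 members with the word had a median log2 fold change of -0.68 in H/R + LITAF against H/R, against -0.25 in the 168 members without it. Of the 16, 15 lay below 0, against 154 of all 184 matched members. This contrast chose the family, and a part of the word in it was not tested. The 110 other genes tested whose promoter held the word had a median of 0.02, with 50 below 0. A match to these letters is a description of the sequence and not a binding site. Several of these members have symbols that mark copies, such as Zfp950l2 and Znf431l5.

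Other motifs were searched on both strands too, and a given promoter could hold several. The letters ACTACAA, found in the site that Zfp143 binds, stood in 10.3% of member promoters and 4.58% of the promoters of genes tested. CCAAT stood in 48.4% and 38.5%, and the ETS-type letters CCGGAAG in 20.7% and 19.1%. The GC box letters GGGCGG were rarer among members, at 44.6% against 63.2%. The Egr-type letters GCGNGGGCG stood in 13 member promoters, 7.07% against 10.2%. TGACGTCA stood in 5, 2.72% against 3.36%, so these last shares rest on few promoters. Member promoters had a median GC content of 56.5% and 17 CpG pairs, against 61.3% and 21 for all genes tested.

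With LITAF, the family's level was lower in most members and the size of the difference varied widely between libraries. Against H/R, 226 of the 268 members (84.3%) had a log2 fold change below 0, against 51.8% of all 11398 genes tested. The median over members was -0.30 (quartiles -0.56 and -0.06), and over all genes tested it was -0.01. By edgeR's quasi-likelihood test with an adjusted p under 0.05, 34 members were called lower and 3 higher, with 231 not called. Over all genes tested, 1.15% were called lower, 3.73% higher and 4.88% in either direction. Since this contrast chose the members, nothing is read from these counts. The 4 libraries of each group did not overlap in 65 members that were lower (8.3% of all genes tested) and in 8 that were higher (10.6%).

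**Figure D1:**
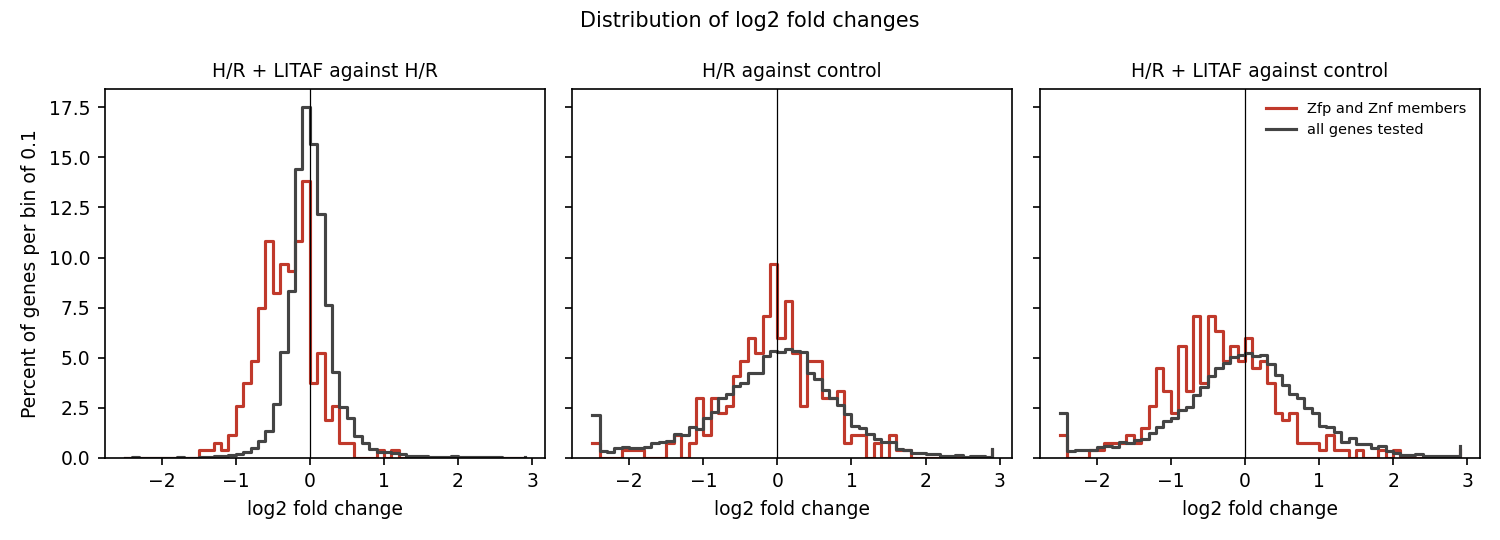
Distribution of log2 fold changes of the 268 Zfp and Znf members (red) and of all 11398 genes tested (dark grey) in the 3 comparisons; the x axis is the log2 fold change, the y axis the percent of genes per bin of 0.1, and the end bins also hold values beyond them. In H/R + LITAF against H/R the members' median was -0.30 and that of all genes -0.01, while in H/R against control the medians were -0.05 and 0.01.

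The difference was uneven across the H/R + LITAF libraries. The median log2 deviation of a member from its mean in the H/R libraries was -0.06, -0.46, -0.20 and -0.36 in H/R + LITAF libraries 1 to 4, and between -0.04 and 0.03 in the 4 H/R libraries. Library 1 therefore lay close to the H/R libraries and library 2 farthest from them, while the medians of all genes tested lay within 0.02 of 0 in every library. The numbers of members below all 4 H/R libraries were 100, 190, 145 and 188 in H/R + LITAF libraries 1 to 4, or 37.3%, 70.9%, 54.1% and 70.1%, against 33.9%, 36.8%, 29.2% and 32.6% of all genes tested. Library 1 was thus near the share of all genes. Library 2 was the lowest of its group in 54.1% of members, against 37.0% of all genes tested, and library 1 the highest in 59.0%, against 36.7%. Summed over members, the level was 5989, 4628, 5522 and 4960 CPM in H/R + LITAF cells, 5652, 5443, 5593 and 5558 CPM in H/R cells, and 6489, 6026, 6408 and 6312 CPM in control cells. Library 1 of H/R + LITAF was thus above every H/R library in this sum, and the groups overlapped. The control libraries all lay above both other groups.

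**Figure D2:**
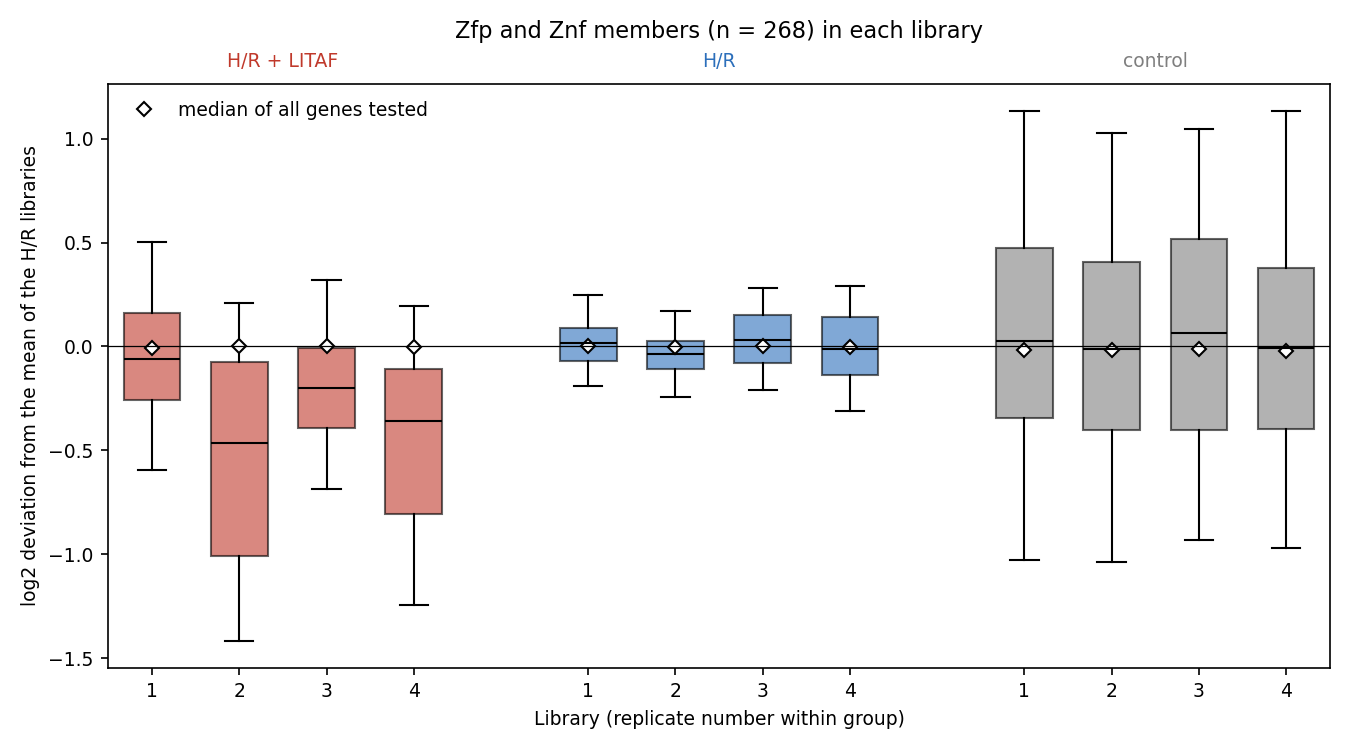
Log2 deviation of each of the 268 members from its mean over the H/R libraries, by library (x axis, 4 libraries per group); boxes show the median and quartiles, whiskers the central 90% of members, and diamonds the median of all genes tested. Medians in H/R + LITAF libraries 1 to 4 were -0.06, -0.46, -0.20 and -0.36, and the diamonds lie near 0 in every library.

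The number of calls depended on single libraries. Without H/R + LITAF library 1, 82 members were called lower, and without library 2, 3 or 4 of that group there were 17, 22 and 9. Of all genes tested, 5.15%, 0.565%, 0.583% and 0.278% were called lower in these fits. Leaving out H/R library 1, 2, 3 or 4 left 17, 15, 13 and 22 members. The shares of all genes tested were then 0.382%, 0.408%, 0.338% and 0.625%. Without libraries 1 and 2 of H/R + LITAF together, a setting added after seeing the data, 26 members were called lower. Of all genes tested, 0.808% were. Members with a log2 fold change below 0 numbered 212 to 225 across these omissions, with medians between -0.34 and -0.24. The median SD of log2 levels within H/R + LITAF was 0.27 for members and 0.17 for all genes tested, against 0.15 and 0.10 within H/R and 0.22 for both within control. Other measures ran along the same order of libraries. The share of counts on 169 ribosomal protein genes was 4.84%, 6.53%, 5.87% and 6.15% in H/R + LITAF libraries 1 to 4, 4.87 to 5.54% in H/R libraries and 2.35 to 2.61% in control libraries. The share on 13 mitochondrial genes was 3.04%, 2.14%, 2.64% and 2.35% in H/R + LITAF libraries 1 to 4, 2.42 to 3.12% in H/R libraries and 2.44 to 2.81% in control libraries. Among markers, Tnnt2 averaged 169 ± 24.9 CPM in H/R + LITAF cells and 67.9 ± 16.8 CPM in H/R cells (SD, n = 4 each) and was called higher (log2 fold change 1.32 ± 0.23, edgeR adjusted p = 0.00296). Myog (1.19), Des (0.23), Myod1 (0.18), Cdh15 (-0.21), Col1a1 (0.36), Col1a2 (0.37) and Cd14 (0.27) were not called. The myoblast markers summed to 500 to 564 CPM in H/R + LITAF libraries and 507 to 641 CPM in H/R libraries. The part of any of these in the family's values was not tested.

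The members with the lowest log2 fold changes among those at 4 CPM or more included several with copy-type or pseudogene names. Zfp239l1 had 3.64, 1.80, 3.07 and 1.96 CPM in H/R + LITAF libraries, against 7.51, 7.64, 6.45 and 6.23 CPM in H/R libraries, a log2 fold change of -1.41 ± 0.25 (SE). Zfp748, a KRAB zinc finger gene, had 8.81, 2.89, 6.51 and 4.61 CPM in H/R + LITAF libraries, against 11.7, 11.3, 13.7 and 9.14 CPM in H/R libraries, and its log2 fold change was -1.01 ± 0.26. In both genes every H/R + LITAF library lay below every H/R library, and library 1 of H/R + LITAF was nearest to H/R. The pseudogene-named Zfp748-ps1 had nearly the same change, -1.04 ± 0.26. It and Zfp748 had whole counts in every library of both H/R groups, but how reads were assigned to close copies is not known. The values of this pair are therefore uncertain.

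Zfp950l2, whose promoter window is printed above, had 10.2, 5.41, 8.23 and 6.28 CPM in H/R + LITAF libraries, against 16.1, 13.8, 17.2 and 12.7 CPM in H/R libraries (log2 fold change -0.99 ± 0.17). Zfp878 had 8.30, 3.93, 7.15 and 5.76 CPM in H/R + LITAF libraries, against 12.1, 12.8, 11.1 and 9.99 CPM in H/R libraries (-0.87 ± 0.18). Neither gene's groups overlapped, and library 2 was again the lowest. The other 5 of the lowest 10 were Zfp58 (-0.97 ± 0.18), Zfp948 (-0.92 ± 0.21), Zfp287 (-0.91 ± 0.21), Zfp81 (-0.89 ± 0.20) and Znf846 (-0.87 ± 0.19), likewise without overlap of their groups.

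Among members at 4 CPM or more, the 5 highest log2 fold changes included the 3 CCCH proteins that bind AU-rich elements in messenger RNA and speed its decay. Zfp36, which encodes tristetraprolin, had 150, 171, 151 and 161 CPM in H/R + LITAF libraries, against 78.1, 71.4, 68.4 and 72.0 CPM in H/R libraries, a log2 fold change of 1.12 ± 0.13. Zfp36l2 had 258, 219, 238 and 250 CPM in H/R + LITAF libraries, against 168, 154, 148 and 178 CPM in H/R libraries (0.58 ± 0.13). Both were above H/R in every library, and Zfp36 was highest in library 2, where the family was lowest. Zfp36l1 had 94.3, 61.3, 82.8 and 72.5 CPM in H/R + LITAF libraries, against 66.8, 55.5, 59.0 and 61.1 CPM in H/R libraries (0.36 ± 0.13). Its groups overlapped, and its libraries stood in the order of the family, with library 1 the highest and library 2 the lowest.

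Zfp469, known in humans for a brittle cornea disorder, had 127, 117, 128 and 116 CPM in H/R + LITAF libraries, against 61.5, 58.7, 58.2 and 80.8 CPM in H/R libraries (0.91 ± 0.11). Its H/R library 4 lay above the other 3, and all of them lay below the H/R + LITAF libraries. Zfp516, known in mice as a regulator of brown fat genes, had 39.9, 32.5, 36.0 and 36.6 CPM in H/R + LITAF libraries, against 24.1, 25.5, 24.1 and 31.2 CPM in H/R libraries (0.47 ± 0.17). Its groups were separated by little more than 1 CPM.

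**Figure D3:**
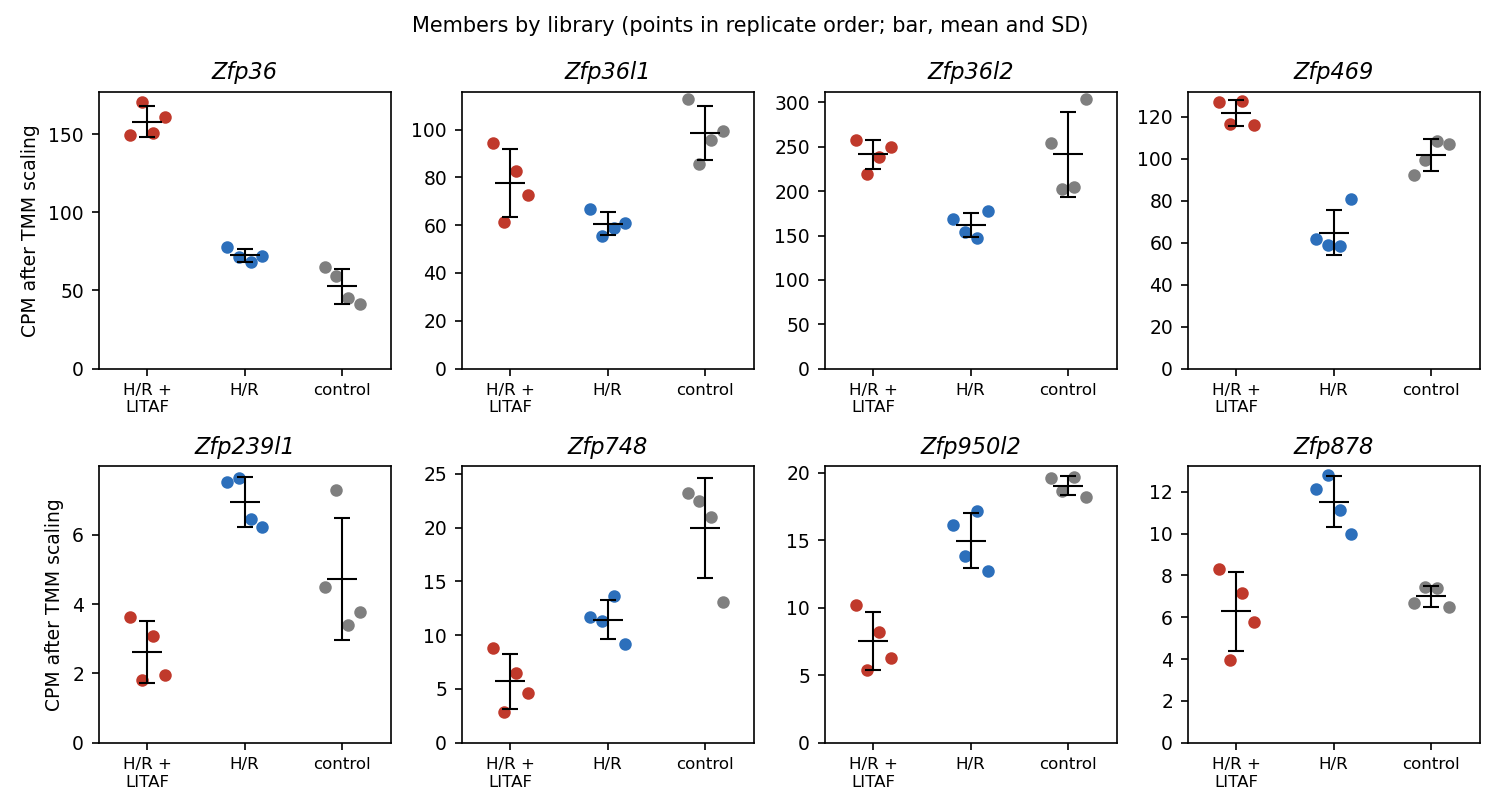
Level of 8 members in CPM after TMM scaling (y axis, from 0) in the 4 libraries of each group (points, in replicate order), with the mean and SD as bars. The upper row has the CCCH genes and Zfp469, whose means were higher with LITAF than in H/R, and the lower row has 4 members that were lower with LITAF, where library 2 of H/R + LITAF is the lowest point.

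Members differed by level, by copy-type name and by place in the genome. With LITAF against the empty vector the median log2 fold change was -0.52, -0.43, -0.25 and -0.07 in quartiles of 67 members each, in order of rising mean CPM. CPM is not scaled by gene length, so these quartiles order genes by reads and not by transcript number. The 30 members with a copy-type symbol (a trailing l with or without a number, or ps) had a median of -0.63 with 29 below 0. The other 238 had a median of -0.25 with 197 below 0. The 83 members with counts that were not whole in an H/R column, as estimated counting gives where reads are divided between similar genes or transcripts, had a median of -0.45, against -0.25 in the 185 with whole counts. These 3 features overlap, and their separate parts were not tested.

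By RefSeq gene order in GRCr8, 261 members had a single place. Neighbours with at most 5 protein-coding genes between them were joined into runs, and 108 members fell into runs of 3 or more. Their median log2 fold change in H/R + LITAF against H/R was -0.43 with 102 below 0. It was -0.14 with 23 below 0 in the 28 members in runs of 2, and -0.19 with 94 below 0 in the 125 that stood alone. By size, the median was -0.49 in the 64 members in runs of 3 to 4 and -0.33 in the 44 in runs of 5 or more, so longer runs were not lower. Among 7 runs of 5 or more members, the run of Zfp455l1, Zfp972, Zfp58, Zfp748, Zfp729b and Zfp729 had a median of -0.75. The run of Zfp77, Zfp347, Znf624l, Zfp873, Zfp433l and Znf57l had a median of -0.68, and 3 of these members, Znf624l, Zfp433l and Znf57l, hold the GTCACTCA word. All members of both runs lay below 0, as did those of the run of Zfp786 to Zfp467 (8 members, median -0.23) and that of Zfp560 to Zfp846 (5 members, median -0.17). In the family as a whole 84.3% of members lay below 0, so a short run wholly below 0 says little about that run. The run of Zfp580, Znf865, Zfp524, Zfp579 and Zfp628 had a median of -0.08, so runs differed among themselves.

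**Figure D4:**
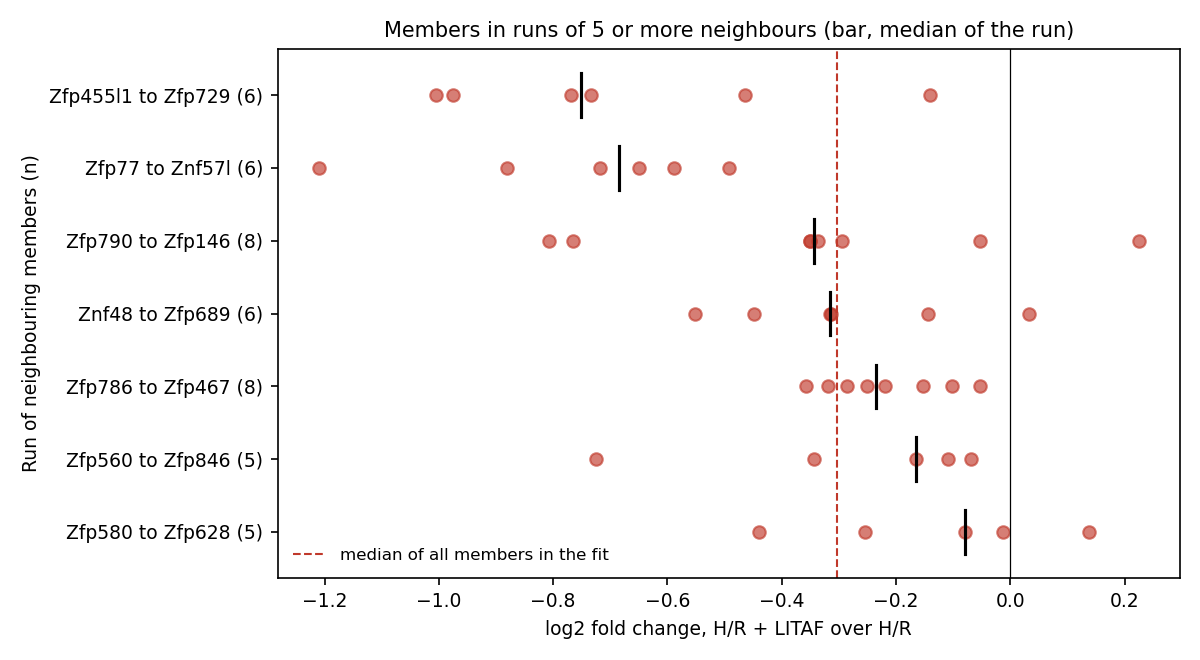
Log2 fold change in H/R + LITAF over H/R (x axis) of each member in the 7 runs of 5 or more neighbouring members (rows, named by the first and last gene, with the number of members); bars mark the median of each run and the dashed line the median of all 268 members, -0.30. The runs with Zfp748 and with Znf57l have medians of -0.75 and -0.68, and 2 further runs, with medians of -0.23 and -0.17, also have all their members below 0. Of all 268 members, 84.3% lay below 0.

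Families with other zinc finger names differed in the same contrast. The 8 Zscan genes tested, whose proteins pair zinc fingers with a SCAN dimerization domain, had a median of -0.40 with all 8 below 0 and 2 called lower, where 51.8% of all genes tested lay below 0 and 1.15% were called lower. The 6 Zkscan genes had a median of -0.15 with 6 below 0 and 1 called lower. The 14 Zc3h genes, of the CCCH type, had -0.14 with 2 called higher, where 3.73% of all genes tested were called higher. The 39 Zbtb genes, with a BTB domain, had -0.07, and the 18 Zdhhc genes, which encode palmitoyltransferases with a zinc-binding motif, had -0.03. Neither family had a call by edgeR or DESeq2, with an unadjusted edgeR p under 0.05 in 5 Zbtb genes and 1 Zdhhc gene. The difference between families was not tested.

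Between H/R and control cells the family split in both directions, and a smaller share of it was called than of all genes. Of the 268 members, 61 were higher and 63 lower in H/R cells by edgeR's quasi-likelihood test (adjusted p under 0.05), and 144 were not called. That is 46.3% called in either direction, against 63.6% of all genes tested, of which 31.8% were higher and 31.8% lower. The median log2 fold change was -0.05 over members and 0.01 over all genes tested, and the median SE was 0.18 for members and 0.14 for all genes. Members below 0 numbered 143, or 53.4%, against 49.7% of all genes tested. The libraries of the groups did not overlap in 55 members that were lower, 20.5% of members against 28.3% of all genes tested. The same held for 60 that were higher, 22.4% against 30.2%. The split depended on scaling. Upper-quartile scaling gave 78 higher and 48 lower and scaling by library totals alone gave 76 and 45, with the median of all genes tested moved by 0.12 and 0.13, while the members' median stayed 0.06 below that of all genes in each case. The H/R libraries entered the choice of members through the level minimum, which favours genes high in those libraries.

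Cell type markers moved with this comparison. Myog, a regulator of myoblast differentiation, averaged 14.1 ± 6.30 CPM in H/R cells and 3870 ± 1924 CPM in control cells, and Tnnt2, a muscle troponin, averaged 67.9 ± 16.8 CPM and 304 ± 99.3 CPM (SD, n = 4 each). Of the 4 myoblast markers tested, Myod1, Myog and Cdh15 were lower and Des was higher in H/R cells. The summed level of these 4 ran from 507 to 641 CPM in H/R libraries and from 2195 to 6451 CPM in control libraries. Col1a1 (log2 fold change -1.47 ± 0.11), Col1a2 (-1.34 ± 0.11) and the leukocyte marker Cd14 (-0.91 ± 0.15) fell too. Counts that were not whole made up 15.7 to 18.7% of member values in H/R columns and 7.84 to 10.1% in control columns, against 14.5 to 15.3% and 3.12 to 3.41% over all genes tested. The part of any of these differences in the values below was not tested.

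Zfp11 showed the largest fall among the members at 4 CPM or more. It had 2.93, 4.16, 3.25 and 4.32 CPM in H/R libraries, against 43.9, 58.9, 58.4 and 76.6 CPM in control libraries, a log2 fold change of -4.02 ± 0.22 (edgeR adjusted p = 1.73e-10). Zfp518a had 6.23, 5.08, 6.88 and 4.60 CPM in H/R libraries, against 33.5, 32.0, 40.2 and 24.4 CPM in control libraries (-2.51 ± 0.29, edgeR adjusted p = 1.56e-06). All H/R libraries were far below all control libraries for both genes. Zfp41 had 10.7, 10.9, 10.5 and 10.0 CPM in H/R libraries, against 42.0, 42.1, 34.9 and 41.1 CPM in control libraries (-1.93 ± 0.10, edgeR adjusted p = 1.73e-10). Zfp608 had 28.8, 28.0, 27.2 and 29.2 CPM in H/R libraries, against 124, 93.9, 97.7 and 102 CPM in control libraries (-1.88 ± 0.11, edgeR adjusted p = 7.95e-10). H/R libraries lay close together in both, while control library 3 of Zfp41 lay below the other 3 and control libraries of Zfp608 ranged more widely. The other 4 of the 8 largest falls were Zfp40 (-2.04 ± 0.21), Zfp169 (-1.49 ± 0.19), Zfp462 (-1.41 ± 0.15), which takes part in heterochromatin formation in mouse stem cells, and Zfp367 (-1.38 ± 0.17).

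Among the rises, Zfp119bl had 7.19, 7.47, 8.00 and 6.17 CPM in H/R libraries, against 2.24, 1.78, 1.90 and 2.37 CPM in control libraries (log2 fold change 1.79 ± 0.24, edgeR adjusted p = 6.44e-06). Zfp395, known from human cells as a hypoxia-induced transcription factor, had 23.1, 19.8, 21.8 and 26.4 CPM in H/R libraries, against 7.60, 8.67, 6.33 and 8.74 CPM in control libraries (1.54 ± 0.13, edgeR adjusted p = 3.25e-08). Zfp330, which encodes a nucleolar protein, had 136, 135, 138 and 127 CPM in H/R libraries, against 48.8, 52.0, 59.0 and 47.7 CPM in control libraries (1.37 ± 0.09, edgeR adjusted p = 2.84e-09). Both these rises and the falls above were named only among calls whose groups did not overlap. Their lack of overlap was thus fixed by that choice. Zfp455l1 (1.68 ± 0.26), Znf57l (1.57 ± 0.19), Zfp787 (1.19 ± 0.14), Zfp566 (1.14 ± 0.13) and Zfp511 (1.12 ± 0.14) completed the 8 largest rises. Zfp119bl, Zfp455l1 and Znf57l have copy-type symbols, so their values may depend on how reads were assigned among similar genes. In every control library Zfp119bl and Zfp455l1 lay below 4 CPM, so they passed that minimum only through the H/R groups. Those groups also set the level minimum for members, so the choice favours such rises. These 16 calls were chosen as the largest without overlap, and leaving out any single library ended none of them.

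**Figure D5:**
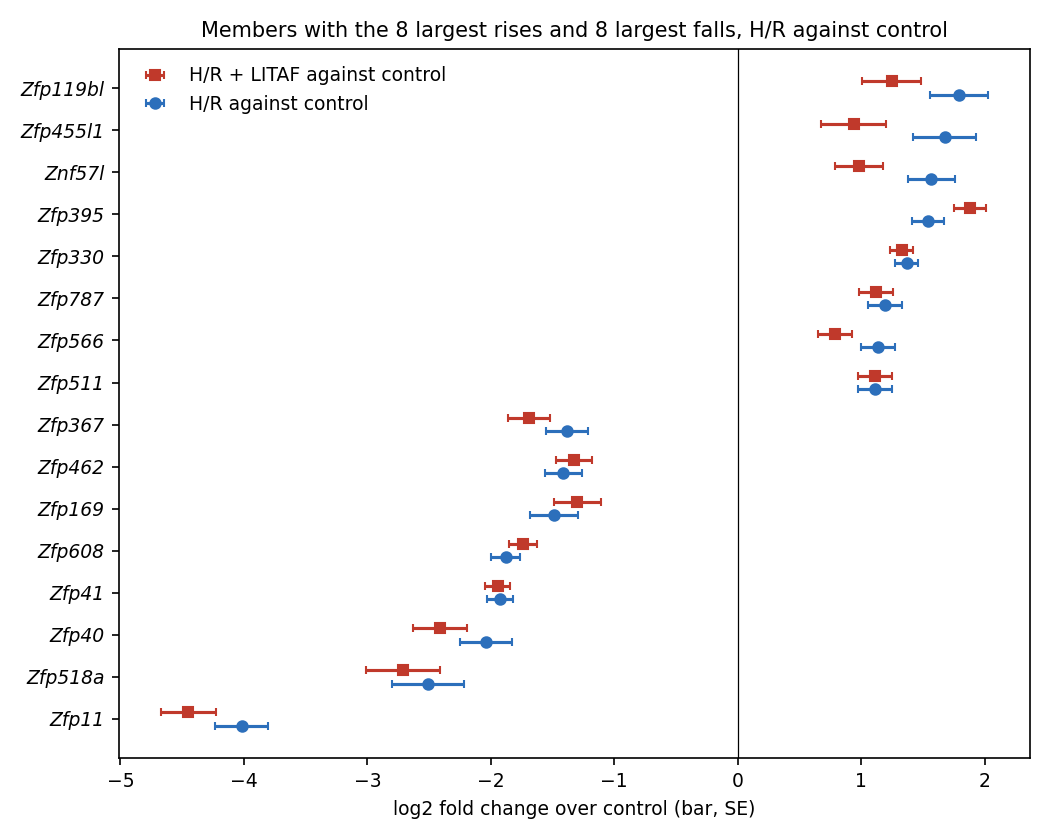
Log2 fold change over control (x axis, bars are the SE) of the members with the 8 largest rises and 8 largest falls in H/R against control, in H/R + LITAF (red squares) and H/R (blue circles), n = 4 libraries per group. The 2 comparisons share the control libraries; Zfp11 had -4.45 in H/R + LITAF and -4.02 in H/R.

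Grouped by role, the 3 CCCH decay factors all changed in H/R against control, in both directions, where 63.6% of all genes tested were called. Zfp36 averaged 72.5 ± 4.09 CPM in H/R cells and 52.7 ± 11.4 CPM in control cells and rose (log2 fold change 0.46 ± 0.13, edgeR adjusted p = 0.00553). Zfp36l1 averaged 60.6 ± 4.73 CPM and 98.4 ± 11.3 CPM and fell (-0.70 ± 0.13, edgeR adjusted p = 0.000184), as did Zfp36l2, at 162 ± 13.5 CPM and 241 ± 48.1 CPM (-0.58 ± 0.13, edgeR adjusted p = 0.000793) (SD, n = 4 each). In control libraries these 3 genes spread more than in H/R libraries.

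Of the 10 members tested that act on RNA, at ribosomes or on the spindle, 4 rose and 1 fell in H/R cells, against 31.8% of all genes tested in each direction. Zfp598, a ubiquitin ligase for ribosomal proteins at stalled ribosomes, averaged 85.5 ± 8.30 CPM in H/R cells and 49.1 ± 9.47 CPM in control cells (log2 fold change 0.80 ± 0.13, edgeR adjusted p = 4.19e-05). Zfp593, whose yeast counterpart acts in large ribosomal subunit assembly, averaged 15.6 ± 2.32 CPM and 7.70 ± 2.06 CPM (1.02 ± 0.17, edgeR adjusted p = 5.16e-05). These rises were larger than the spread within either group. Zfp706 rose by 0.36 ± 0.10 and Zfp830 by 0.40 ± 0.16 on the log2 scale, and Zfp207, which loads Bub3 onto kinetochores, changed by -0.38 ± 0.11. The call on Zfp830 was lost without H/R replicate 1 or 3 or control replicate 1, 2 or 4, and in a fit of the 2 groups alone. With LITAF, 0 of the 10 were called by edgeR or DESeq2 and 2 had an unadjusted edgeR p under 0.05. Zfp638, an RNA-binding splicing regulator, had 65.3, 19.5, 44.4 and 24.4 CPM in H/R + LITAF libraries, against 68.4, 55.0, 65.8 and 51.4 CPM in H/R libraries. Its H/R + LITAF library 1 lay within the range of H/R and library 2 was the lowest, the order of the family. Of 3 members known as ubiquitin or SUMO ligases, Zfp91, Zfp451 and Zfp598, Zfp598 alone changed in H/R against control.

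Of the 21 tested members known as sequence-specific regulators, 1 rose and 6 fell in H/R cells, against 31.8% of all genes tested in each direction. Zfp410, which in human and mouse cells activates Chd4, averaged 46.6 ± 0.479 CPM in H/R cells and 25.6 ± 4.48 CPM in control cells (log2 fold change 0.86 ± 0.12, edgeR adjusted p = 8.06e-06), while Chd4 itself averaged 252 ± 5.43 CPM and 250 ± 16.5 CPM. Zfp687, a partner of Zfp592 and Zfp532 in a chromatin complex, averaged 26.1 ± 2.92 CPM and 55.8 ± 9.64 CPM (SD, n = 4 each) and fell by 1.10 on the log2 scale. The other falls were Zfp462, given above, Zfp644 (-0.62 ± 0.16), Zfp521 (-0.50 ± 0.14), Zfp532 (-0.45 ± 0.14) and Zfp143 (-0.31 ± 0.13). Zfp143, which binds many promoters and whose own promoter window is printed above, lost its call when any 1 of the 4 H/R replicates or control replicate 2 was left out, and had an edgeR adjusted p of 0.0513 with the replicate number as a block. Its call was also lost under both other scalings, without the low-count filter and in a fit of the 2 groups alone. With LITAF against H/R, 0 of the 21 were called by edgeR or DESeq2, 1 had an unadjusted edgeR p under 0.05, and the median was -0.06.

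Of the 10 tested members known as KRAB zinc finger proteins, 1 rose and 5 fell in H/R cells, a total near the 63.6% of all genes tested that were called. Zfp57, which keeps methylation at imprinted genes, averaged 35.5 ± 1.85 CPM in H/R cells and 21.8 ± 1.76 CPM in control cells and rose (log2 fold change 0.70 ± 0.11, edgeR adjusted p = 4.02e-05). Zfp445, its partner in that task, averaged 27.4 ± 3.05 CPM and 40.7 ± 8.81 CPM and was called lower (-0.57 ± 0.24, edgeR adjusted p = 0.0462). The 2 imprinting regulators thus had opposite signs, but the call on Zfp445 was lost when any 1 of the 4 H/R replicates or control replicate 1, 2 or 3 was left out. It was also lost under both other scalings and without the low-count filter. Zfp568, which in mice silences a placental Igf2 transcript, averaged 75.1 ± 3.88 CPM and 162 ± 14.4 CPM and fell (-1.11 ± 0.11, edgeR adjusted p = 1.88e-07) (SD, n = 4 each). Zfp37 (-1.09 ± 0.28), Zfp90 (-0.85 ± 0.23) and Zfp748 (-0.80 ± 0.25) fell too. With LITAF against H/R, 2 of the 10, Zfp748 and Zfp354a, were called lower, where 1.15% of all genes tested were, and the median was -0.38. The call on Zfp748 was lost in a fit of the 2 groups alone and when H/R + LITAF replicate 2, 3 or 4 or H/R replicate 1, 2 or 3 was left out.

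Genes of the silencing machinery around KRAB zinc finger proteins were looked at beside the family. Of 20 such genes, 3 rose and 9 fell in H/R against control by edgeR, a total near the 63.6% of all genes tested that were called. With LITAF against H/R, 0 of them were called by edgeR or DESeq2, 3 had an unadjusted edgeR p under 0.05, and the median was -0.13. Trim28 averaged 343 ± 32.1 CPM in H/R + LITAF cells, 337 ± 21.5 CPM in H/R cells and 331 ± 79.6 CPM in control cells (SD, n = 4 each), values that overlapped. The rises in H/R against control were Mphosph8 (1.00 ± 0.14), Dnmt3a (0.66 ± 0.12) and Cbx1 (0.31 ± 0.13). The falls were led by the maintenance methylation genes Dnmt1 (-2.02 ± 0.13) and Uhrf1 (-1.73 ± 0.12), followed by Atf7ip, Hdac1, Cbx3, Tasor, Pphln1, Chd3 and Ehmt2. Mphosph8, Tasor and Pphln1 encode the subunits of 1 silencing complex, HUSH, and had opposite signs here. The calls on Cbx1 and Ehmt2 were lost when any 1 of the 4 H/R replicates was left out, and also without control replicate 4, without control replicate 1 for Cbx1 or without control replicate 2 for Ehmt2. Ehmt2 also lost its call under both other scalings and without the low-count filter. Cbx1 lost it by DESeq2, in a fit of the 2 groups alone and with duplicated gene IDs kept. The call on Tasor was lost without control replicate 1. Smarcad1 gained a call as lower in H/R against control with the replicate number as a block (edgeR adjusted p = 0.0413). It did so too in a fit of the 2 groups alone (edgeR adjusted p = 0.0101). In that comparison, leaving out a single control replicate also gave calls on Setdb1 and Cbx5 (higher) and Hdac2 (lower). In H/R + LITAF against H/R, Smarcad1 was called lower under the block and when H/R + LITAF replicate 1 was left out.

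In H/R + LITAF against control, which shares its control libraries with H/R against control and its LITAF libraries with the choice of the family, 36 members were called higher, 120 lower and 112 neither. Of all genes tested, 32% were called higher, 32.6% lower and 64.6% in either direction, against 58.2% of the members. The median over members was -0.35, and 184 lay below 0, or 68.7%, against 50.4% of all genes tested. This median was -0.25 with upper-quartile scaling and -0.27 with library totals alone, where the median of all genes tested moved by 0.10 and 0.08. With 1 library left out it ran from -0.45 to -0.28. Libraries did not overlap in 87 members that were lower, 32.5% of members against 25.7% of all genes tested. The same held for 29 that were higher, 10.8% against 26.4%. The largest rises at 4 CPM or more were Zfp395 (1.88 ± 0.13), Zfp36 (1.59 ± 0.13) and Zfp330 (1.33 ± 0.09), and the largest falls were Zfp11 (-4.45 ± 0.22), Zfp518a (-2.71 ± 0.30) and Zfp40 (-2.41 ± 0.22). Zfp36 was thus ordered H/R + LITAF, H/R, control from high to low, with no overlap between neighbours. Zfp878 had a different order. This gene averaged 6.29 ± 1.88 CPM in H/R + LITAF cells and 11.5 ± 1.22 CPM in H/R cells, and ran from 6.47 to 7.45 CPM in control libraries (SD, n = 4 each), so the H/R + LITAF and control libraries overlapped and the H/R libraries lay above both.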

How the data were processed

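The authors deposited an estimated count per gene and library, given per the file headers as a raw gene-level read count under Ensembl rat IDs and not normalized. Libraries were made from poly(A) RNA, per the labels' protocols. The submitters' processing notes name DESeq2 and edgeR without a role. Aligner, quantifier, genome build, annotation and use of strand: not given in the sources used here, so close copies and overlapping genes are uncertain.

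Of 128 gene IDs in more than 1 row, 72 with differing rows were left out, which left 16002 IDs. Total counts ran from 16.9 to 20.7 M per library. Counts were rounded and filtered with filterByExpr, leaving 11398 genes. All 12 libraries, grouped by their titles, entered 1 fit with TMM scaling and edgeR's quasi-likelihood F-test (robust, two-sided, edgeR 4.0.16, limma 3.58.1, R 4.3.3), adjusted by Benjamini-Hochberg over all genes and called under 0.05. The SE is the size of the log2 fold change over the square root of F. Over all genes, the fit's common biological coefficient of variation came to 14.5%.

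Levels are CPM after TMM scaling. Deviations by library used log2(CPM + 0.5). DESeq2 1.42.0, other scalings, filters, member minimums, fits of 2 groups, a replicate block and leaving out each library were the alternatives. Same-numbered H/R and control libraries deviated together (correlations 0.309 to 0.563), but the labels do not pair them and unlike numbers were not compared. The p-values printed for H/R against control come from a fit without pairing, except where the block is named. The other comparisons had correlations from 0.0929 to 0.264 and from 0.0633 to 0.131. Genes were named by rule: among members at 4 CPM or more, the 10 lowest and 5 highest log2 fold changes for H/R + LITAF against H/R, the 8 largest rises and falls for H/R against control and the 3 largest for H/R + LITAF against control among calls without overlap, and the role lists. Zfp878's order over groups was chosen after its values were seen. The members, gene lists and promoter word were chosen with earlier results of these data known.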

Additional observations from a re-analysis of the deposited data

Results flagged for a closer look

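In all, 222 groups of 4 libraries were looked at, 216 from the 72 members chosen by the naming rule and 6 from the family's summed level and median deviation. Of these, 11, all from members, had a library far from the other 3 by Dixon's criterion at the 95% level, which chance gives in about 1 in 20 groups. Of the 11, 4 concerned H/R library 4. Zfp469 was at 80.8 CPM there, against 58.2 to 61.5 CPM in the other H/R libraries. Zfp335 was at 40.5 CPM (others 31.9 to 32.8 CPM), Zfp746 at 46.8 CPM (others 37.6 to 38.8 CPM) and Zfp317 at 10.99 CPM (others 14.2 to 14.8 CPM).

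In H/R + LITAF cells, library 1 had 4.21 CPM of Zfp40, against 2.07 to 2.31 CPM in the other libraries, and library 2 had 9.67 CPM of Zfp41, against 10.6 to 10.7 CPM. In control cells, library 3 had 34.9 CPM of Zfp41 (others 41.1 to 42.1 CPM), 9.78 CPM of Zfp263 (others 17.8 to 18.6 CPM) and 25.4 CPM of Zfp317 (others 15.0 to 15.9 CPM). Control library 2 had 5.95 CPM of Zfp787 (others 8.58 to 8.77 CPM), and control library 4 had 32.3 CPM of Zfp219 (others 17.2 to 19.7 CPM).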

How the results depend on the processing

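None of the results for the family, the corepressor genes or the named members reversed a called direction under any alternative run. In H/R + LITAF against H/R, members called lower numbered 34, and 55 with the replicate number as a block, 48 by DESeq2 and 9 to 82 with 1 library left out. Members called higher numbered 3, and 6 in a fit of the 2 groups alone, also with duplicated gene IDs kept, which was added after seeing the data. Without H/R + LITAF libraries 1 and 2 together, also added afterwards, 26 were called lower. The corepressor list had 0 genes called lower, and 1 under the block (Smarcad1), 1 with the 2 groups alone with or without duplicated IDs (Cbx5) and 0 to 1 with a library left out. In H/R against control, the median over members was -0.05, and 0.062 with upper-quartile scaling, 0.074 with library totals alone and -0.056 to -0.015 with a library left out, the last of these without H/R replicate 2. Both scalings called 5 corepressor genes higher, against 3. Under the block, 66 members were higher and 71 lower in H/R against control.

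Among named members, calls in H/R against control were lost under some alternative for Zfp143, Zfp239l1, Zfp445, Zfp532 and Zfp830. The same held for 7 members in H/R + LITAF against H/R and 10 in H/R + LITAF against control. Estimated counts of close copies limit the precision for members with copy-type names, and counting error limits it for members near 1 CPM.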

Other observations

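Zfp808l1 lay below the level set for named genes and was singled out after its values were seen. Its mean over all libraries was 0.755 CPM, the lowest of the members in the fit. It had 2.05, 0.382, 0.430 and 0.633 CPM in H/R + LITAF libraries and 1.28, 1.08, 1.60 and 1.23 CPM in H/R libraries, against 0.102, 0.0556, 0 and 0.216 CPM in control libraries. Both H/R groups lay above control in every library, and H/R + LITAF library 1 lay above all H/R libraries. The level minimum used the libraries of the H/R groups alone, where its mean was 1.11 CPM, so its place above control follows in part from that choice. No fold is given, since control libraries held few reads, and its copy-type symbol makes the assignment of reads uncertain.

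The 3 members left out of the fit had lower levels with LITAF in a fit of the 8 libraries of both H/R groups, where their duplicated rows were identical. The log2 fold changes were -0.36 for Zfp707l1, -0.27 for Zfp93 and -0.31 for Zfp94. The names nearest below the level minimum also lay below 0 in H/R + LITAF against H/R, with log2 fold changes of -1.42 for Zfp950l8, -0.57 for Zfp964 and -0.83 for Zfp951.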
